A study of Mus musculus with 4 samples.

Results

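The interferon regulatory factors are transcription factors that share a DNA-binding domain, and 8 genes of the family were described in mouse retina after inhibition of miR-124-3p, a microRNA abundant in neurons. The 8 genes, Irf1, Irf2, Irf3, Irf4, Irf5, Irf7, Irf8 and Irf9, were chosen by name from the 48897 genes of the deposited table, and all 8 were found. The libraries were made from retinas of wild-type C57BL/6 mice. On postnatal day 3, the left eye received an injection into the vitreous of 0.6 nmol miR-124-3p antagomir, a chemically stabilised antisense strand directed against the microRNA, in 1 μl (anti-miR-124 group), and the right eye received the same amount of a scrambled sequence (NC group). The retinas were taken 6 days later, on postnatal day 9, and retinas were pooled, from at least 2 litters in each group. No uninjected eye was analysed here, so what both groups share, the injection and an oligonucleotide in the vitreous, cannot be told apart from the level of an untouched retina. Each group had 2 libraries. A left-eye and a right-eye library share a number in their names, and they are called Anti-A and NC-A (pair A) and Anti-B and NC-B (pair B), since which of them is replicate 1 is not told by the labels. The study's text speaks of 1 biological replicate of mixed retinas where it describes the samples, and of 2 where it describes the expression differences. The labels do not say which animals went into which library, so p-values measure the spread between these libraries.

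In the interferon system, a cell that senses foreign nucleic acid activates kinases that phosphorylate Irf3 and Irf7, which then switch on the genes of type I interferons. Secreted interferon binds its receptor on neighbouring cells, where JAK kinases start a signal to the nucleus. There Irf9 is the DNA-binding subunit of a complex named ISGF3, which binds the interferon-stimulated response element (ISRE) of many antiviral genes, among them Irf7 itself. Irf1 is an activator induced by interferon gamma and Irf2 its antagonist on the same elements, while Irf4, Irf5 and Irf8 are best known in blood cells, Irf5 and Irf8 also in microglia, the macrophages of the retina.

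Between 16317239 and 18726963 reads were counted on genes per library. NC-A stood apart: 21 lens genes made up 6.69% of its TPM (a level scaled to gene length and to the library total), against at most 0.0235% in the other 3 libraries. The log2 TPM ratios of pair A had a median of 0.10 over all tested genes, or -0.0016 with the lens genes left out of the TPM sum, and the TMM-normalized ratios one of -0.0094. The retinal label held, as the summed TPM of 8 rod photoreceptor genes lay between 8607 and 10063. Microglia markers were high in one library: the sum of 20 of them was 303.1 TPM in NC-A, 293.1 in Anti-A and 239.0 in NC-B, but 697.3 in Anti-B. The sum of 8 Muller glia and astrocyte markers was 1529, 1461 and 1478 TPM in the same order, and 1879 in Anti-B. Vim, the most abundant of them, had 524, 392 and 373 TPM in that order, and 679 in Anti-B. The next in abundance had 396 (Rlbp1), 386 (Glul) and 276 TPM (Slc1a3) in NC-B, against 354, 373 and 288 in Anti-B. By TMM-normalized ratios, 6 of the 8 had opposite directions in the pairs, and their median log2 ratio in pair B was 0.40. In bulk tissue, more cells of a type and more RNA per cell cannot be told apart.

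The promoter sequences of the members show which elements of the pathway lie close to their starts. They were taken from RefSeq (GRCm38.p6), from 250 bases before to 50 bases after a transcript start, and all 8 members matched, with 11 windows. The first pair of sequences is shown because these 2 genes had the largest fold changes of the family. Capitals mark a TATA box (TATAAA), and each run ends at the base before the transcript start.
Irf7 promoter, minus strand of chr7:141266425-141266544: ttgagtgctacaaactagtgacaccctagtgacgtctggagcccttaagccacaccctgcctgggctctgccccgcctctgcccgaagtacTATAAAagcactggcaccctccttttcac
Irf9 promoter, plus strand of chr14:55603865-55603984: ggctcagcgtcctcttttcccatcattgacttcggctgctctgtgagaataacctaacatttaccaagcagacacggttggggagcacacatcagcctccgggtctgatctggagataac
The Irf7 window starts from a transcript at position 141266424, inside the gene as the deposited table bounds it, which ends at 141266499 on the minus strand.

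Both strands were searched for the ISRE core GAAANNGAAA and for the gamma-activated sequence TTCNNNGAA (GAS), an element of genes induced by interferon gamma. The ISRE core stood in 3.44% and the GAS in 8.30% of all 32851 promoter windows, and in at least 1 window of 3.99% and 9.55% of the 27025 genes. Among the 8 members, 1 had an ISRE core, Irf2, and 3 had a GAS, Irf1, Irf2 and Irf8. The windows of Irf7 and Irf9 held neither, which says only that these letters are not in these windows. The stretches with the matches are shown to compare the members with each other, with the matched bases in capitals.
Irf1, plus strand of chr11:53769908-53769948: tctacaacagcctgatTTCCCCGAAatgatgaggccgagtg
Irf2, plus strand of chr8:46739495-46739544: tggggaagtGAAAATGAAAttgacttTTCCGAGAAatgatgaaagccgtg
Irf8, plus strand of chr8:120736171-120736229: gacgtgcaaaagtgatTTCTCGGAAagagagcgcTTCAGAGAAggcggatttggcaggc
For comparison, stretches of 3 antiviral genes with overlapping or repeated ISRE cores are shown, Bst2 and Ddx60 because their pattern over the libraries was nearest to that of Irf7, and Isg15 as a textbook target that was picked once its values were known.
Isg15, minus strand of chr4:156200859-156200912: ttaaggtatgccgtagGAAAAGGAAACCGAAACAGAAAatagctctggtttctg
Bst2, minus strand of chr8:71537571-71537618: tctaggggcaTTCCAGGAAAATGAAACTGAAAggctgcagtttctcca
Ddx60, plus strand of chr8:61928018-61928086: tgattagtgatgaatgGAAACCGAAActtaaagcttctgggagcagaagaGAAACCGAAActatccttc
In Bst2, a GAS overlaps the first of 2 ISRE cores, and in Isg15 3 cores overlap each other. A match describes the sequence and does not show that a factor binds there.

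**Figure D1:**
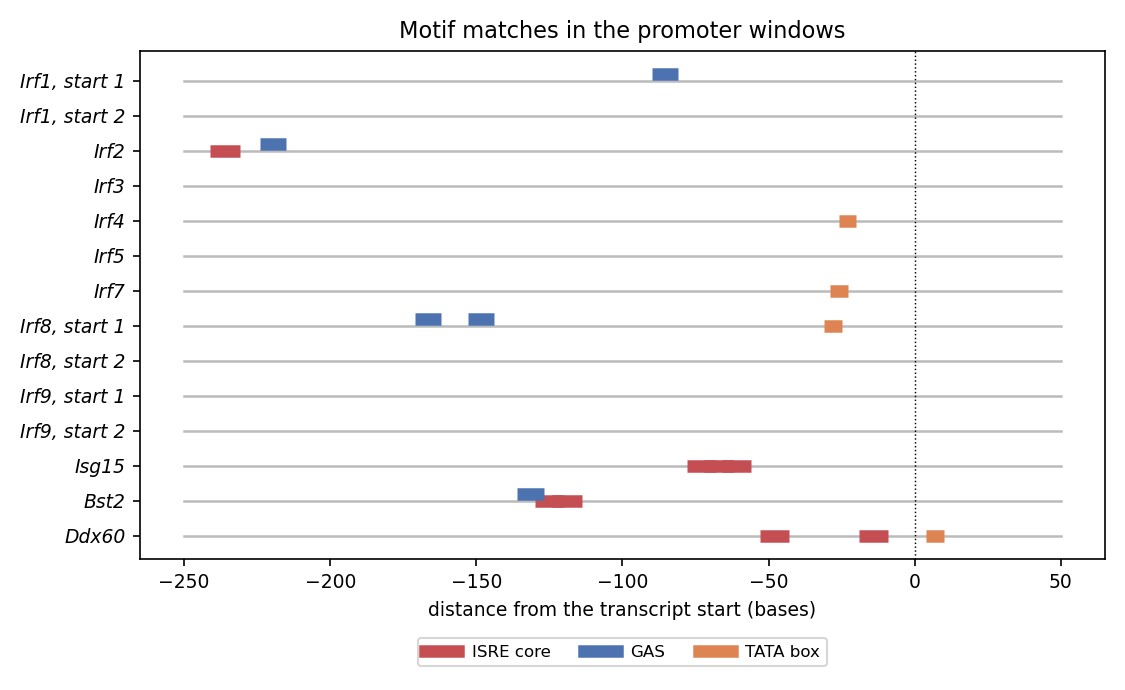
Matches to the ISRE core, the GAS and the TATA box in the promoter windows of the 8 members and of 3 antiviral genes, by distance in bases from the transcript start (dotted line). Irf7 and Irf9 show no ISRE core or GAS, whereas Isg15, Bst2 and Ddx60 show 2 or 3 ISRE cores.

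Irf7, the factor that amplifies the type I interferon response, had the largest difference of the family. It lies on chromosome 7, from 141263183 to 141266499 on the minus strand (positions as in the deposited table, GRCm38). Its counts were 15 in NC-A and 11 in NC-B, against 72 in Anti-A and 213 in Anti-B. These are 1.46 and 1.05 TPM against 7.13 and 19.4 TPM, and Anti-A and Anti-B lay above both NC libraries. The TPM was 4.88-fold (pair A) and 18.5-fold (pair B) higher. By TMM-normalized counts, 0.180% of the tested genes exceeded its ratio in pair A, and 0.113% did in pair B. The quasi-likelihood test of edgeR gave a log2 fold change of 3.34 (standard error, SE, 0.56), an unadjusted p of 7.4e-04 and a Benjamini-Hochberg adjusted p of 0.695. It ranked 16 of 17766 tested genes by fold change, and without Anti-B the log2 fold change was 2.46. The log2 TPM ratios of the pairs, 2.29 and 4.21, differed by 1.92, with a counting error of 0.61 on that difference, and without more libraries per pair this difference was not tested.

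Irf9, the DNA-binding subunit of ISGF3, followed. It lies on chromosome 14, from 55603985 to 55610030 on the plus strand. Its counts were 137 in NC-A and 131 in NC-B, against 287 in Anti-A and 501 in Anti-B. In TPM, these were 9.60 and 8.97 against 20.5 and 32.8, so that the NC libraries nearly coincided and Anti-A and Anti-B lay above them. The TPM was 2.13-fold (pair A) and 3.65-fold (pair B) higher. The log2 fold change was 1.46 (SE 0.23, unadjusted p = 5.7e-04, adjusted p = 0.671 from edgeR), which ranked 114 by fold change, and without Anti-B it was 1.10. The study also measured this gene by RT-qPCR, whose values were not used here. Its primers, shown to place that assay in the gene, match 5 of 7 annotated Irf9 transcripts and enclose 200 bases of chromosome 14, from 55607547 to 55607746, in coding exon 7 of an annotated transcript with 9 exons.
Irf9 forward primer: GCCGAGTGGTGGGTAAGAC
Irf9 reverse primer: GCAAAGGCGCTGAACAAAGAG
All letters are in capitals because each primer matches over its whole length. As both primers lie in the same exon, the amplicon spans no intron.

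**Figure D2:**
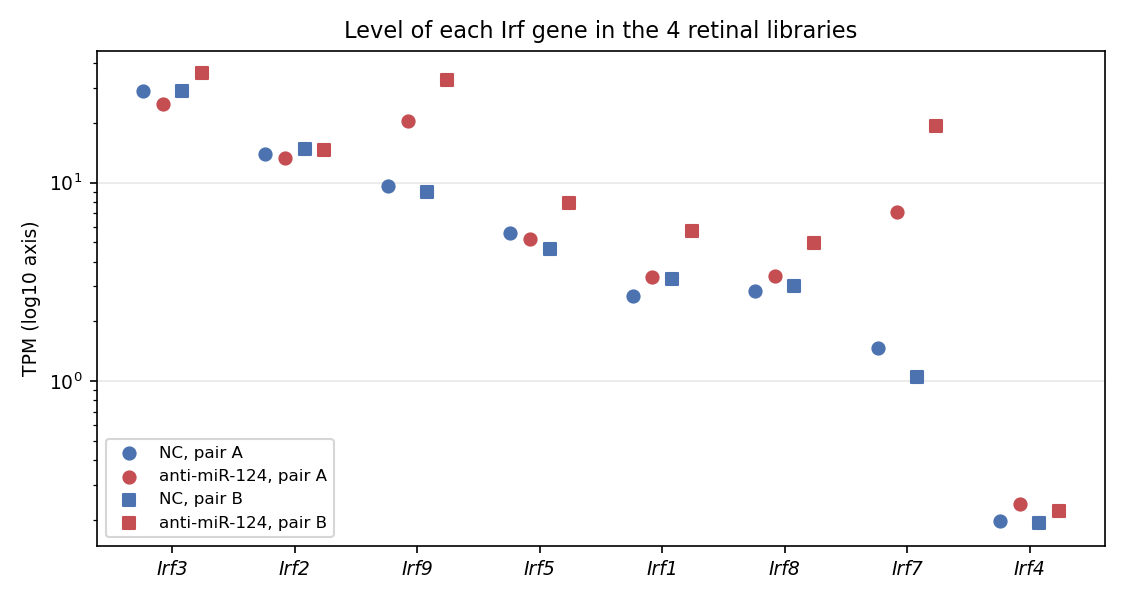
TPM of each Irf gene on a log10 axis, 1 point per library, with the genes ordered by their mean in the NC group. The anti-miR-124 libraries of Irf7 (7.13 and 19.4 TPM) and Irf9 (20.5 and 32.8 TPM) lie well above their NC libraries, while the points of Irf2 lie between 13.3 and 14.8 TPM.

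Irf3, the constitutive partner of Irf7, was the most abundant member in the NC group and did not move in 1 direction. It lies on chromosome 7, from 44997648 to 45002848. Its level was 29.1 and 29.0 TPM in the NC libraries, against 24.8 TPM in Anti-A and 35.6 TPM in Anti-B. The values of the anti-miR-124 group thus lay on either side of the NC libraries. The log2 fold change was 0.0034 (SE 0.17, adjusted p = 1.00 from edgeR). Its sign depended on the libraries: it was -0.27 without Anti-B and -0.07 without NC-B.

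Irf1 and Irf2, the activator and its antagonist, differed from each other in their values. Irf1 (chromosome 11, from 53770014 to 53778374) had 2.69 TPM in NC-A and 3.29 in NC-B, against 3.36 in Anti-A and 5.71 in Anti-B. Its groups did not overlap, but Anti-A was only slightly above NC-B. The log2 fold change was 0.55 (SE 0.31, adjusted p = 0.989 from edgeR), or 0.14 without Anti-B. Irf2 (chromosome 8, from 46739745 to 46847458) had 13.9 TPM in NC-A and 14.8 in NC-B, against 13.3 in Anti-A and 14.5 in Anti-B, and these groups overlapped. Its log2 fold change of -0.10 had an SE of 0.09, the smallest of the tested members. Irf2 also overlaps 5 non-coding genes on the opposite strand, none with more than 5 counts in a library.

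The members best known in blood cells had differences below those of Irf7 and Irf9. Irf8 (chromosome 8, from 120736358 to 120756694), a factor that macrophages and microglia need to develop, had 2.85 TPM in NC-A and 3.00 in NC-B, against 3.40 in Anti-A and 4.97 in Anti-B. The groups did not overlap, and the log2 fold change was 0.46 (SE 0.27, adjusted p = 0.989 from edgeR), or 0.18 without Anti-B. Irf5 (chromosome 6, from 29526130 to 29541869), which acts downstream of Toll-like receptors, had 5.59 TPM in NC-A and 4.64 in NC-B, against 5.19 in Anti-A and 7.91 in Anti-B. Its groups overlapped, and the log2 fold change was 0.30 (SE 0.28), or -0.02 without Anti-B. Irf5 overlaps Tnpo3 on the opposite strand over 1043 bases, and Tnpo3 had between 1963 and 2247 counts. The library kit keeps the strand, but whether the counting used it is not given in the sources used here. Irf4 (chromosome 13, from 30749208 to 30766982), a factor of lymphocytes, had 5 counts in NC-A and in NC-B and 6 in Anti-A and in Anti-B, for which the exact Poisson intervals run from 1.62 to 11.7 and from 2.20 to 13.1 counts at 95%. A difference was not detectable at this depth, and Irf4 did not pass the filter on low counts.

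Across the family, 7 of the 8 members were tested, and edgeR gave a Benjamini-Hochberg adjusted p under 0.05 for 0 of them, as for 0.0% of all 17766 tested genes. At an unadjusted p under 0.05, 2 of the 7 had higher values after anti-miR-124, Irf7 and Irf9, against 2.23% of all tested genes. DESeq2 gave an adjusted p under 0.05 for the same 2 genes, 3.83e-06 for Irf7 and 5.37e-05 for Irf9, and for 33 of 27204 genes with an adjusted p (0.121%). In edgeR, both passed when the filter on low counts was left out, where 379 of 31982 tested genes did. By TPM, 4 of the 7 tested members were higher in both pairs, Irf1, Irf7, Irf8 and Irf9, where 32.3% of the tested genes were. The groups of the same 4 members did not overlap, with the anti-miR-124 group higher, as for 20.8% of the tested genes. The untested Irf4 also lay this way, at 5 against 6 counts. By TMM-normalized counts, 4 of 7 were again higher in both pairs, where 22.8% of the tested genes were. The median log2 fold change was 0.46 over the 7 tested members, against 0.00066 over all tested genes, and without Anti-B it was 0.14.

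**Figure D3:**
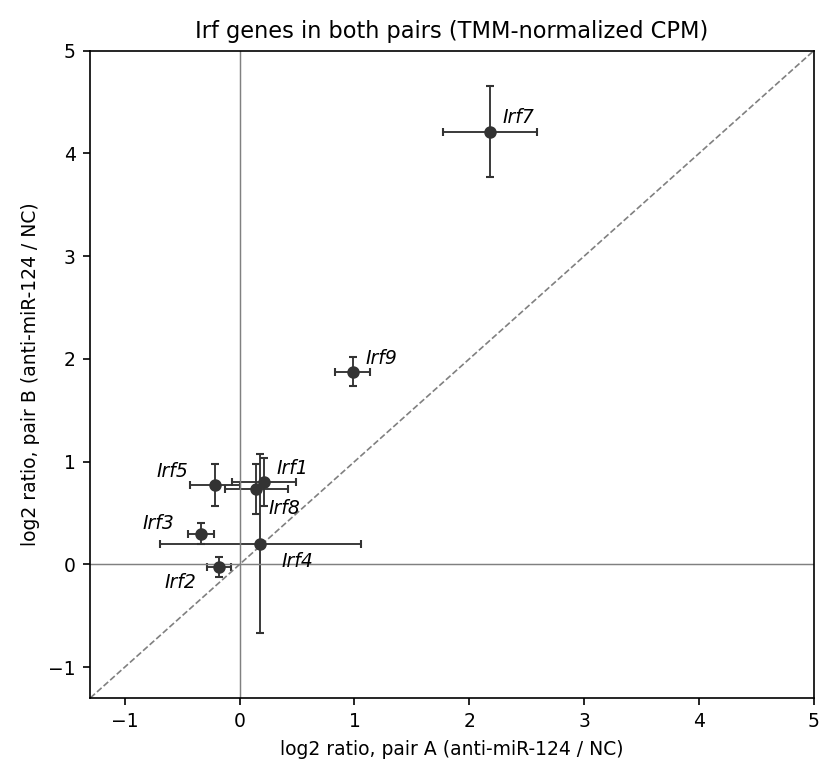
Log2 ratio of anti-miR-124 to NC for each Irf gene in pair A (x axis) and pair B (y axis), from TMM-normalized counts (CPM), with bars of 1 standard error from counting alone and a dashed line of equal ratios. Irf7 (2.18 and 4.21) and Irf9 (0.98 and 1.87) lie apart from the other members, and Irf3 and Irf5 are below 0 in pair A and above 0 in pair B.

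The order of the members by level shifted with these differences. In the NC group, the mean TPM ran from Irf3 (29.1 ± 0.0859, SD, n = 2) over Irf2 (14.4 ± 0.627), Irf9 (9.29 ± 0.448) and Irf5 (5.11 ± 0.673) to Irf1 (2.99 ± 0.421), Irf8 (2.93 ± 0.105), Irf7 (1.25 ± 0.293) and Irf4 (0.195 ± 0.0032). Only the libraries of Irf1 and Irf8 overlapped between neighbours in this order. In the anti-miR-124 group, Irf9 (26.6 ± 8.72) stood next to Irf3 (30.2 ± 7.62), and Irf7 (13.3 ± 8.66) next to Irf2 (13.9 ± 0.916). There, neighbours did not overlap between Irf9 and Irf2 and between Irf8 and Irf4, and overlapped in the other 5 cases. In 7 of 8 members, Anti-B was higher than Anti-A, the exception being Irf4. Irf2 is among the 7 with 13.3 TPM in Anti-A and 14.5 in Anti-B, and the share among all tested genes was not counted. The summed TPM of the family was 65.5 in NC-A, 65.0 in NC-B, 77.9 in Anti-A and 121.1 in Anti-B. Irf7 made up 2.23% and 1.61% of this sum in NC-A and NC-B, against 9.16% and 15.99% in Anti-A and Anti-B. The share of Irf9 was 14.7% and 13.8% against 26.3% and 27.1%, and that of Irf3 was 44.5% and 44.7% against 31.9% and 29.4%.

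Since Irf5 and Irf8 are microglial, their levels were set beside the 20 microglia markers. In pair B, the markers summed to 2.92 times the NC library, while the TPM of Irf8 was 1.66-fold and that of Irf5 1.71-fold higher. In pair A, the markers stood at 0.97 times the NC library, and Irf7 was 4.88-fold and Irf9 2.13-fold higher in that pair. Per 100 TPM of markers, Irf7 had 0.482 TPM in NC-A and 0.438 in NC-B, against 2.43 in Anti-A and 2.78 in Anti-B, and Irf9 had 3.17 and 3.75 against 6.98 and 4.70, while Irf8 had 0.941 and 1.26 against 1.16 and 0.712. The median log2 fold change of the markers was 0.64, or 0.10 without Anti-B. By TMM-normalized counts, 7 of 20 were higher in both pairs (22.8% of all tested genes). By edgeR, 4 had an unadjusted p under 0.05, all higher (2.23% of all tested genes). Ctss, a lysosomal protease and 1 of the 4 most abundant markers, had 261 and 253 counts (NC) against 295 and 1115 (Anti). Markers of other blood cells were low, with sums of 5.85 to 8.46 TPM over 10 lymphocyte genes and 2.02 to 3.56 TPM over 10 monocyte and granulocyte genes, and 4 genes of each list had no count in any library. The part of microglia in the values of the members was not tested, in pair A or in pair B.

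**Figure D4:**
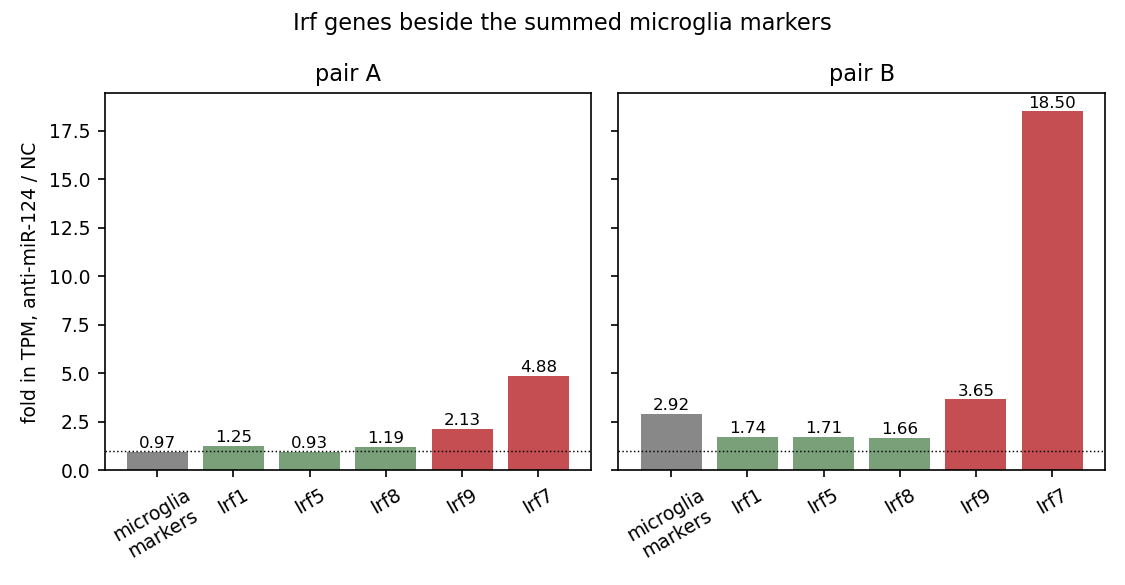
Fold in TPM of the anti-miR-124 over the NC library in each pair, for the sum of 20 microglia markers (grey), for Irf1, Irf5 and Irf8 (green) and for Irf9 and Irf7 (red), with 1 library on each side and a dotted line at 1. In pair A the markers are at 0.97 and Irf7 at 4.88, and in pair B the markers are at 2.92 and Irf7 at 18.50.

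The median log2 fold changes of the genes upstream of the family lay near 0. Of 21 interferon genes, the ligands of the pathway, 17 had no count in any library, and the sums over all 21 were 5 counts in NC-A, 1 in NC-B and 0 in both Anti-A and Anti-B, which allows up to 3 counts in each for counting error alone. Of 8 tested interferon receptor and JAK kinase genes, 1 had an unadjusted p under 0.05, Il10rb, a shared receptor chain, with a log2 fold change of 1.06 (SE 0.44), and the median was 0.08. Jak1, the most abundant of them, had a log2 fold change of 0.06 (SE 0.07), and Ifnar1, a chain of the type I receptor, of 0.007 (SE 0.07). Of 17 tested kinases and adaptors that lead to Irf3 and Irf7, 1 had an unadjusted p under 0.05 by edgeR, Tbk1, and the median was 0.03. Tbk1, the kinase of Irf3, had an unadjusted p of 0.022 in the lower direction, with 726 and 840 counts (NC) against 669 and 740 (Anti). Of 11 tested co-factors and inhibitors, 1 had an unadjusted p under 0.05, Trim21, a ubiquitin ligase of several IRF proteins, with a log2 fold change of 1.62 (SE 0.42), and the median was 0.11. Il10rb and Trim21 are named because of their values, after these were seen. By edgeR, 2.23% of all tested genes were higher at an unadjusted p under 0.05, and 298 of 17766 were lower.

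The interferon-stimulated genes, textbook targets of ISGF3, Irf1, Irf3 and Irf7, had larger values. Of 25 interferon-stimulated genes, 22 were tested, and 20 were higher in both pairs by TMM-normalized counts (22.8% of all tested genes were). The same number had an unadjusted p under 0.05 by edgeR, all higher (2.23% of all tested genes). DESeq2 called 12 of 25 (0.121% of all genes with an adjusted p). Their median log2 fold change was 2.60, or 2.07 without Anti-B. Oasl2, of the oligoadenylate synthetase family, had 47 and 38 counts against 327 and 789, and Bst2, the membrane protein tetherin, 14 and 10 against 75 and 154. Both lay without overlap between the groups. Of the other genes with the highest levels, Cmpk2 had a log2 fold change of 0.77 (SE 0.20), while Ifit2 had 209 and 328 counts (NC) against 348 and 314 (Anti), and its groups overlapped. The list was made of textbook targets with a promoter ISRE, so the match found in the window of 11 of the 17 genes that had one is no result.

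A list linked to Irf1, of antigen presentation genes and guanylate-binding proteins, had 13 tested genes. Of these, 10 were higher in both pairs by TMM-normalized counts (22.8% of all tested genes). By edgeR, 11 had an unadjusted p under 0.05, all higher (2.23% of all tested genes). DESeq2 called 4 of 14 (0.121% of all genes with an adjusted p). The median log2 fold change was 1.70, or 0.96 without Anti-B. B2m, the light chain of class I molecules, had 288 counts in NC-A and 283 in NC-B, against 403 in Anti-A and 1009 in Anti-B. H2-K1, a class I heavy chain, had 105 and 65 against 106 and 361, so that its ratio was large in pair B alone. H2-D1 had 373 and 440 counts (NC) against 450 and 934 (Anti), and Irgm1 had 44 and 63 against 138 and 322. Over the tested genes of the list, the median TMM-normalized log2 ratio was 1.12 in pair A and 2.29 in pair B.

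**Figure D5:**
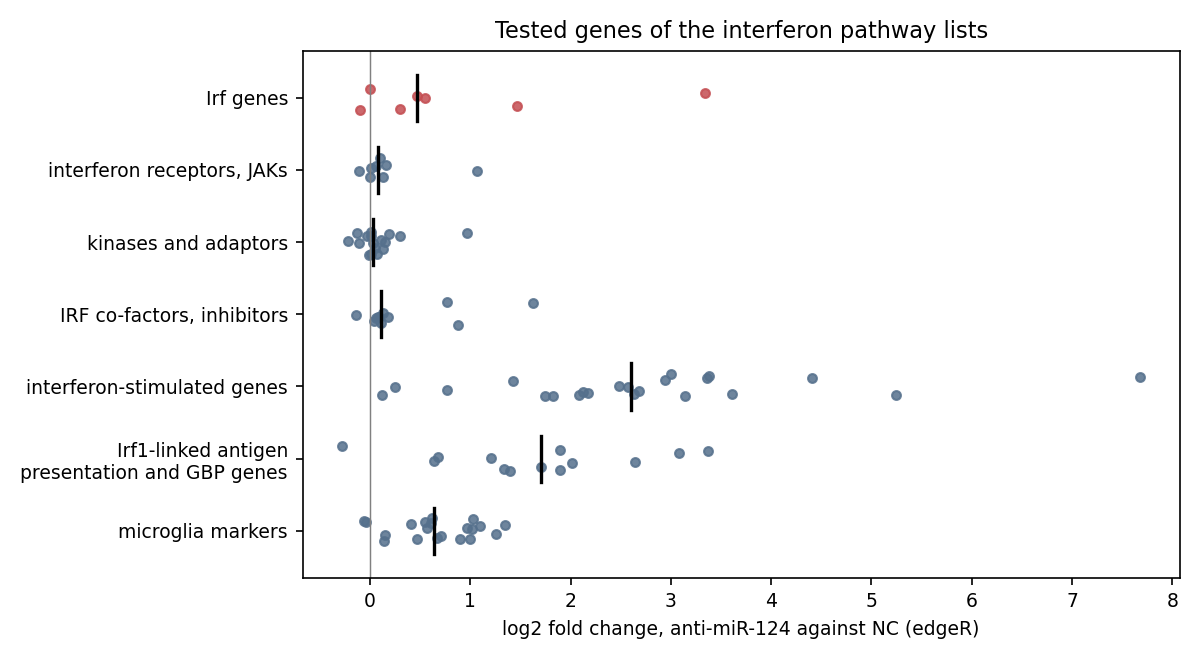
Log2 fold change of anti-miR-124 against NC from edgeR for the tested genes of the Irf family (red) and of 6 lists of the pathway or of microglia (blue), 1 point per gene with a random vertical offset, and a black line at the median of each list. The medians are 0.46 for the Irf genes, 0.03 for the kinases and adaptors, 2.60 for the interferon-stimulated genes and 0.64 for the microglia markers.

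The genes whose pattern over the 4 libraries was most like that of a member were found by the Euclidean distance of centred log2 CPM, over 16025 genes. Nearest to Irf7 were Ddx60 at a distance of 0.193, Bst2, Lgals3bp, Gbp3 and Gbp6, where the median gene was at 2.75. Ddx60, an antiviral helicase, had 12 counts in NC-A and 10 in NC-B, against 70 in Anti-A and 224 in Anti-B, close to the values of Irf7 itself. Nearest to Irf9 were Eif2ak2 at 0.126, Parp9, Uba7, Lgals9 and Dtx3l, against a median of 1.47. Eif2ak2, the kinase PKR that is activated by double-stranded RNA, had 141 counts in NC-A and 124 in NC-B, against 262 in Anti-A and 497 in Anti-B. Nearest to Irf8 were Acads at 0.0369, Rab26os, Gm10244, Crlf2 and Tapbp, against a median of 0.55. The distances rest on 4 libraries that these genes share. A pseudocount of 0.5 was added to the CPM, which shrinks ratios at low counts. Uba7, with 5 and 6 counts (NC) against 23 and 49 (Anti), had a log2 fold change of 2.60, against 1.46 for Irf9. The median distance is larger for a member that itself differs more between the libraries, so it does not measure how particular a likeness is.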

How the data were processed

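The authors deposited read counts per gene, not normalized, for 48897 genes in 4 libraries, with gene lengths. 4 further columns of RPKM values were not used. HISAT2 and mm9 stand in the submitters' processing notes, but the gene positions in the table are those of GRCm38 (7 of 8 members had the RefSeq start and end), and the counting tool is not given in the sources used here. Columns were assigned to groups by the eye they name. TPM was computed from counts and lengths. Groups were compared with edgeR 4.0.16 (R 4.3.3; TMM, filter on low counts by group, quasi-likelihood test, both directions, Benjamini-Hochberg adjustment over 17766 genes, threshold 0.05), with no covariate. DESeq2 1.42.0 was an alternative. The fit was tested on simulated data. No libraries were duplicates (chi-square of at least 3.69 per degree of freedom). At 16317239 to 18726963 counts per library, errors of low genes are large, and intervals and limits cover counting error only. Likest genes used a pseudocount of 0.5 and a mean CPM of at least 1. The named genes were all members, up to 4 most abundant tested genes per list and 5 likest genes for each of Irf7, Irf9 and Irf8. The members and lists were chosen with earlier results of these data known. The values of 1 list of the pathway are not reported here. Promoters came from RefSeq. Python 3.11.15 was used for the other steps.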

Additional observations from a re-analysis of the deposited data

How the results depend on the processing

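The log2 fold changes of Irf7 and Irf9 stayed above 0 in all 12 alternatives, from 2.46 to 3.87 and from 1.10 to 1.75, while their adjusted p ranged from 6.99e-21 to 1.00 and from 2.75e-17 to 1.00. The numbers of genes and of members called, 0 and 0 by edgeR, were 379 and 2 without the filter on low counts, 33 and 2 with DESeq2, and from 0 to 256 and from 0 to 2 when 1 library was left out. The log2 fold changes of Irf7 and Irf9 were 3.66 and 1.58 without NC-A, and 3.87 and 1.75 without Anti-A. They were 3.05 and 1.35 without NC-B, and 2.46 and 1.10 without Anti-B. In these fits the lone library is assumed to vary like the others. The labels do not tie the same-numbered libraries to animals, and the study's methods name no block, so the numbers did not enter the edgeR test. Pairs A and B name only which libraries share a number. The deviations of these libraries had a correlation of -0.18 over 16052 genes. With 2 libraries per group, this value cannot show whether the libraries are paired. With the replicate block, 0 of 17766 genes and 0 of 7 members were called by edgeR, and 376 genes had an unadjusted p under 0.05. Irf7 and Irf9 had log2 fold changes of 3.20 and 1.43 with that block (adjusted p = 0.858 from edgeR for both). With the numbers crossed, an alternative chosen after seeing the data, 160 of 17766 genes and 2 of 7 members were called. The log2 fold change of Irf3 became negative with the replicate block (-0.014), with the crossed block (-0.013), without NC-B (-0.07) and without Anti-B (-0.27), and that of Irf5 without the last (-0.020). Leaving out 1 library moved Irf3 between -0.27 and 0.23 and Irf5 between -0.020 and 0.56. The cause was not tested. On every scale tried, 5 of 8 members were higher in both pairs, Irf4 included. With the lens genes left out of the TPM sum, also chosen after seeing the data, the mean NC level of Irf3 moved to 30.1 TPM and that of Irf4 to 0.202 TPM, more than their spread. At 5 or 6 counts, depth limits Irf4, and with 2 libraries per group no spread within pairs can be measured.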
